A study of Mus musculus with 26 samples.

Results

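The comparison described here set mouse embryonic stem cells (mESCs) that lack Mtgr1 directly against mESCs that lack Prdm14, and asked which lineage programmes separated the 2 losses. It rested on 5 RNA-seq libraries out of the 26 samples of the series: the Mtgr1-/- clones A3, C1 and C3, and the Prdm14-/- clones G6 and F10, chosen by genotype and culture and by no measured value. All 5 came from the Stella:GFP mESC line, in which green fluorescent protein reports the germ cell gene Stella, and all were grown for 5 days without feeders in serum with leukemia inhibitory factor (serum+LIF). The knockouts were made with CRISPR-Cas9, with guides in exon 3 of Mtgr1 and exon 2 of Prdm14. Each library was a single clone, so the spread between libraries was the spread between clones. Beside them stood a single wild type (wt) library, 3 libraries of Mtgr1-/- clones that carried FLAG-HA-tagged Mtgr1 (FH-Mtgr1) and 2 of Prdm14-/- clones that carried tagged Prdm14 (FH-Prdm14), all in serum+LIF. Their values are given as a description with no test. FH-Prdm14 cells carried far more Prdm14 transcript than wt cells (116 and 79.8 against 2.77 RPKM, a length- and depth-scaled level), so they were an overexpression and not a restored wt level.

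Prdm14 is a zinc finger protein that binds DNA in a sequence-specific way. It helps to hold mESCs in the naive state, which resembles the preimplantation embryo, and is needed for primordial germ cells. Mtgr1 (gene symbol Cbfa2t2) is a corepressor of the ETO family that binds Prdm14 and recruits histone deacetylases. Loss of naive identity can lead towards the epiblast, from which the body and the germ line arise, or towards extraembryonic lineages: the trophoblast, which forms the placenta, and the primitive endoderm, which forms the yolk sac. Where 2 partners act together, a direct comparison of the 2 losses cancels shared changes of equal size. It leaves changes that differ in size or direction, and differences between the clones and libraries themselves.

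Values are RPKM, read counts scaled to transcript length and library size, and were compared as log2(RPKM + 0.5); differences are always Mtgr1-/- minus Prdm14-/-, and an adjusted p below 0.05 in a limma model was called a difference. Of 24015 genes, 12360 reached 1 RPKM in at least 2 of the 5 knockout libraries and were tested. The knockout libraries held 11329857 to 20630603 reads on genes. Transcript levels of the targeted genes do not check the genotypes, since both kinds of clone still make an aberrant transcript: Cbfa2t2 was at 19.9, 18.6 and 18.0 RPKM in Mtgr1-/- and 16.6 and 16.8 in Prdm14-/- clones (difference 0.17, adjusted p = 0.288), and Prdm14 at 3.63, 3.88 and 1.43 against 1.962 and 3.605 (0.04, adjusted p = 0.941). The other ETO genes, Runx1t1 and Cbfa2t3, were below 0.6 RPKM in all 5 libraries.

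The libraries of a genotype were not all alike. Clone C3 stood apart from its sister clones, for which read counts over genes gave a chi-square of 46.9 (against A3) and 42.8 (against C1) for each degree of freedom, where A3 and C1 gave 6.99 and the Prdm14-/- clones 24.4. Replication histone genes, whose transcripts lack a poly(A) tail, took 168 and 193 of every 1000000 reads in A3 and C1 and 196 in wt, against 32.7 in C3, 37.3 in G6 and 29.9 in F10. The rank correlation between GC content and the difference from wt over 11685 genes was 0.13 and 0.21 in A3 and C1, 0.40 in C3, 0.57 in G6 and 0.48 in F10. In both measures C3 lay nearer to the Prdm14-/- clones than its sisters did, so results are also given without C3, and for C3 alone against the Prdm14-/- clones, a choice made after seeing the data in which the lone sample is assumed to vary like the other groups. The part of these properties in the differences was not tested. The Y-linked genes went against the clone names: Ddx3y was at 0.01 RPKM in the knockout labelled A3 and 8.47 in its rescue, but at 10.5 in the knockout labelled C1 and 0.04 in its rescue. No value below rests on matching a knockout with its own rescue.

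In the direct comparison 4567 genes (36.9% of those tested) differed, 1948 higher in Mtgr1-/- cells (15.8%) and 2619 lower (21.2%). Differences of at least 1 log2 unit were more often lower, with 1185 genes lower and 414 higher. The balance of all calls depended on the scaling. With median-of-ratios scaling of the libraries 2383 genes were higher and 2330 lower. After adjustment for GC content, over the 11685 genes that had it, 2384 were higher and 2555 lower. The knockouts' libraries did not overlap for 7106 of the genes tested, or 57.5%. Without C3 5157 genes passed. Leaving out G6 or F10, which leaves a single Prdm14-/- clone, gave 2850 and 2991 genes. The plot of lists by share shows where called members lay against these background shares: trophoblast, Rhox, neural and imprinted genes on the higher side, and naive pluripotency, germline, primitive endoderm and glycolysis genes on the lower side. These shares describe the lists and are not a test of them. Fits that left a single clone of a genotype called fewer of all genes tested. List counts from those fits, given below, therefore have a lower background share. Counts of members above or below the single wt library are given below with no share over all genes beside them, and are descriptions only.

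**Figure D1:**
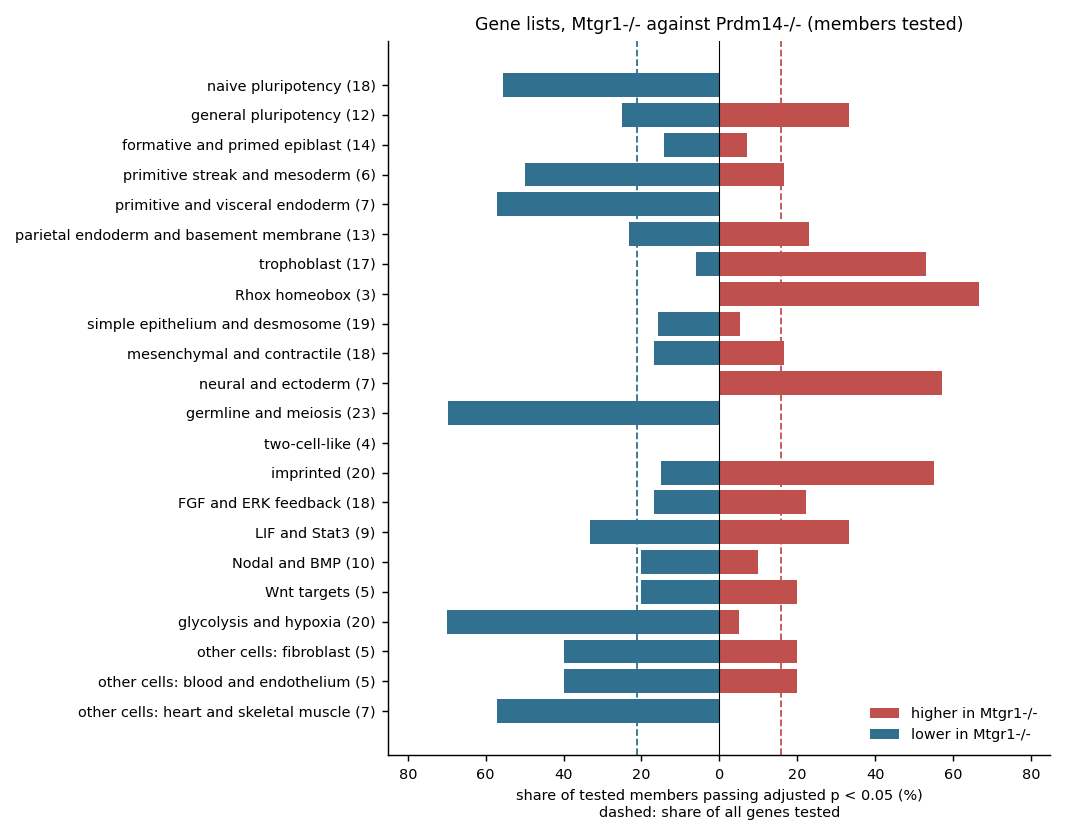
Share of the tested members of each gene list (number tested in brackets) that were higher (right, red) or lower (left, blue) in Mtgr1-/- than in Prdm14-/- cells at an adjusted p below 0.05, in percent. Dashed lines mark the shares over all 12360 genes tested, 15.8% higher and 21.2% lower; 16 of 23 germline genes and 14 of 20 glycolysis genes were lower, and 9 of 17 trophoblast genes were higher.

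Among the 10 genes with the largest positive differences were 2 trophoblast genes, Plac1 and Hand1, the kinase gene Pim2, the imprinted gene Magel2, Enpp2, which encodes the lysophosphatidic acid-producing enzyme autotaxin, and the growth factor gene Pdgfc. Of these 10 genes, 7 (all but Plac1, Hand1 and Pim2) reached 1 RPKM in no Prdm14-/- library and so entered the test through the group where they were high. Magel2 was at 8.13, 6.53 and 8.10 RPKM in Mtgr1-/- clones and 0.962 and 0.434 in Prdm14-/- clones (difference 2.78, SE 0.26, adjusted p = 2.35e-05), against 0.230 in wt. Enpp2 (5.67, 4.35 and 4.28 RPKM against 0.537 and 0.274; difference 2.54, SE 0.21, adjusted p = 1.36e-05) went the other way relative to wt, where it was at 4.62, so the Prdm14-/- clones were the ones below wt. Pdgfc was at 2.76, 2.85 and 4.57 against 0.172 and 0.155 RPKM (difference 2.52, SE 0.22, adjusted p = 2e-05). The other 4 genes on this side were short or non-polyadenylated transcripts, Hist1h4a, Hist2h4, Snord42b and Snord34, with differences of 2.60 to 3.27; histone H4 genes are near-identical copies and the small nucleolar RNAs lie inside other genes, so their reads are uncertain. Hist1h4a was at 12.0 and 16.3 RPKM in A3 and C1 but 1.16 in C3, and with C3 alone none of these 4 passed (adjusted p from 0.107 to 0.62).

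On the lower side, the cartilage matrix gene Matn1 led, at 0.121, 0.193 and 0.838 RPKM in Mtgr1-/- clones against 14.7 and 8.05 in Prdm14-/- clones (difference -3.78, SE 0.34, adjusted p = 2e-05). Matn1, Syce3, Prss42 and Anxa8 reached 1 RPKM in no Mtgr1-/- library and entered the test through the Prdm14-/- libraries, where they were high. Txnip, a glucose-responsive inhibitor of thioredoxin and of glucose uptake, was at 18.6, 17.5 and 24.6 against 194 and 231 RPKM (difference -3.37, SE 0.19, adjusted p = 8.96e-07), and wt at 165. Every Mtgr1-/- clone thus lay far below wt, and both Prdm14-/- clones lay somewhat above it. Foxj1, the regulator of motile cilia, had the reverse layout: 2.33, 2.73 and 3.25 RPKM in Mtgr1-/- clones and 2.25 in wt, against 30.9 and 25.8 in Prdm14-/- clones (difference -3.15, SE 0.28, adjusted p = 1.93e-05). In FH-Prdm14 cells Foxj1 was at 3.73 to 3.90 RPKM. Also on this side were Ly6g6e, Syce3, Prss42, Aire, Anxa8 and Macrod1, with differences from -3.67 to -3.17, and Mir7005 (-3.29), a microRNA gene that was not located in the annotation used, so that reads shared with another gene were not checked. Syce3, a protein of the synaptonemal complex that holds paired chromosomes together in meiosis, was at 0.964, 0.800 and 0.479 against 9.36 and 15.8 RPKM. All 10 genes of this side passed without C3 and with C3 alone.

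Trophoblast genes were higher in Mtgr1-/- cells. Of 23 listed, 17 were tested. Of these, 9 were higher (52.9%) and 1 was lower (5.9%), against 15.8% and 21.2% of all genes tested. The median difference was 0.75, against -0.02 over all genes tested. Plac1, an X-linked gene of placental trophoblast (chrX:50423172-50593288, minus strand, mm9), was at 19.03, 17.53 and 5.36 RPKM in Mtgr1-/- clones A3, C1 and C3, against 1.37 and 0.364 in G6 and F10. The groups did not overlap, and clone C3 was the lowest of its group (difference 3.32, SE 0.45, a 10.0-fold difference, adjusted p = 0.000226); it was 3.88 without C3 and 2.21 with C3 alone. Hand1, a transcription factor that drives trophoblast giant cells and also acts in heart mesoderm (chr11:57642207-57646320, minus strand, mm9), was even across the Mtgr1-/- clones at 33.7, 34.7 and 36.1 RPKM, and uneven in the Prdm14-/- clones at 7.68 and 1.48 (difference 3.13, SE 0.42, adjusted p = 0.000204). In wt both genes were low, at 0.118 RPKM for Plac1 and 1.29 for Hand1, and FH-Mtgr1 libraries had 0.264 to 0.339 RPKM of Plac1 and 1.87 to 3.31 of Hand1.

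The trophoblast regulator Gata2 was at 9.30, 11.1 and 7.35 RPKM in Mtgr1-/- clones against 4.20 and 1.44 in Prdm14-/- clones (difference 1.67, SE 0.32, adjusted p = 0.00176). Ascl2, an imprinted regulator of the spongiotrophoblast, was at 12.3, 12.5 and 16.6 against 5.13 and 4.45 RPKM (difference 1.42, adjusted p = 0.000539), with wt between at 8.48. The other called members were Mbnl3, Id2, Msx2, Dlx3 and Sct, with differences from 0.59 to 1.35. Eomes, which acts in trophoblast stem cells and in the primitive streak, was the exception, lower in Mtgr1-/- clones at 3.35, 2.68 and 2.04 against 5.50 and 4.76 RPKM (difference -0.84, SE 0.20, adjusted p = 0.00654). Tfap2c was at 27.7, 30.4 and 29.2 against 27.2 and 30.3 RPKM (0.02, 95% confidence interval -0.39 to 0.42), and the difference of Gata3 (5.28, 5.61 and 4.14 against 3.73 and 2.01 RPKM) was 0.75 with adjusted p = 0.0864.

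Other defining trophoblast genes were low in both knockouts. Cdx2, a regulator of trophoblast stem cells, reached at most 1.19 RPKM (C3) and Elf5 at most 0.497 (A3), and the spongiotrophoblast gene Tpbpa was at 0 in 3 of the 5 libraries and at most 0.141. The giant cell hormone gene Prl3d1 was at 2.21 RPKM in A3, 0.441 in C1, 0.101 in C3 and 0 in G6 and F10. Of the 9 higher genes, all 3 Mtgr1-/- clones lay above the wt library in 9, and both Prdm14-/- clones also lay above it in 6. The number higher was 10 without C3, 5 with C3 alone, and 5 without F10.

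**Figure D2:**
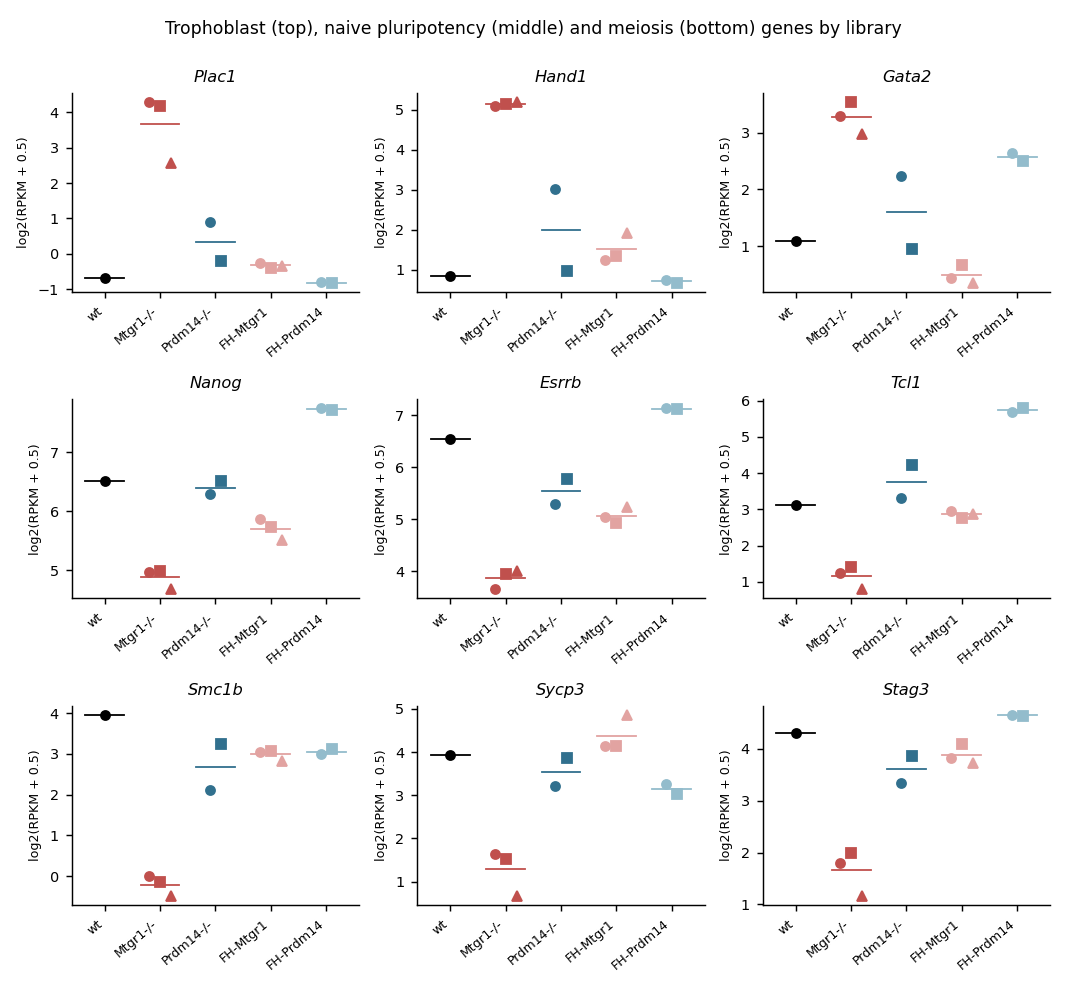
log2(RPKM + 0.5) of 3 trophoblast genes (top), 3 naive pluripotency genes (middle) and 3 meiosis genes (bottom) in each serum+LIF library of wt, Mtgr1-/-, Prdm14-/-, FH-Mtgr1 and FH-Prdm14 cells; points are libraries (circle A3, G6 or wt, square C1 or F10, triangle C3) and lines are group means. For all 9 genes, chosen from those called, the Mtgr1-/- and Prdm14-/- points do not overlap. The same holds for 4509 of all 4567 called genes and for 57.5% of the genes tested. Mtgr1-/- points lie above in the top row and below in the other rows.

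Rhox6 and Rhox9, X-linked homeobox genes used in placenta and germ cells, were also higher. Rhox6 was at 66.5, 75.3 and 44.2 RPKM in Mtgr1-/- clones and 21.4 and 8.195 in Prdm14-/- clones (difference 2.14, SE 0.45, adjusted p = 0.00333). Rhox9 was at 41.2, 49.5 and 30.1 against 20.3 and 6.98 (difference 1.68, SE 0.40, adjusted p = 0.00665). These paralogs lie side by side and may share reads. All 5 knockout libraries were above wt, where Rhox6 was at 0.510 and Rhox9 at 0.786 RPKM. Neither passed without F10 or with C3 alone (adjusted p = 0.0997 and 0.149 with C3 alone). Of the 10 Rhox genes in the table, Rhox13 was the other one tested and was not called (0.37, adjusted p = 0.28).

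Imprinted genes, which are expressed from 1 parental copy and many of which act in placental growth, formed a second group on the higher side. Of 22 listed, 20 were tested. Of these, 11 were higher (55%) and 3 lower (15%), against 15.8% and 21.2% of all genes tested. Their median difference was 0.88. Peg10, a retrotransposon-derived gene needed for the placenta (chr6:4697306-4710514, plus strand, mm9), was at 848, 753 and 775 RPKM in Mtgr1-/- clones against 290 and 128 in Prdm14-/- clones (difference 2.03, SE 0.41, adjusted p = 0.00246), and at 119 in wt. Mest was at 61.3, 62.1 and 71.8 against 21.6 and 14.8 RPKM (difference 1.83, SE 0.23, adjusted p = 0.000135). Grb10, which restrains growth factor signalling, was at 10.4, 11.2 and 14.2 against 4.70 and 2.31 (difference 1.69, SE 0.24, adjusted p = 0.00034). For Grb10 the wt library was at 8.72 RPKM, between the knockouts.

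H19, a non-coding RNA that is very abundant in extraembryonic tissue, reached 1238, 1510 and 768 RPKM in Mtgr1-/- clones and 646 and 389 in Prdm14-/- clones, against 43.7 in wt (difference 1.17, SE 0.39, adjusted p = 0.0336). Both losses thus carried far more H19 than the wt library, and clone C3 lay close to G6; the difference without C3 was 1.45 (adjusted p = 0.0129) and with C3 alone 0.61 (adjusted p = 0.452). Dlk1 (difference 1.56) passed the expression filter through the Mtgr1-/- libraries alone. Phlda2, Igf2, Impact, Cdkn1c, Peg3 and Ndn were also higher, with differences from 0.86 to 1.19. The 3 lower genes were Slc22a18 (0.238, 0.238 and 0.326 against 2.23 and 2.83 RPKM, a gene that passed the filter through the Prdm14-/- libraries alone; difference -1.97, SE 0.20, adjusted p = 3.65e-05), Sgce (-0.87) and Igf2r (-0.85), the receptor that clears Igf2. Sgce is the neighbour of Peg10 and differed in the opposite direction, with 11.25, 9.35 and 11.3 against 19.6 and 19.8 RPKM. Relative to the single wt library, all 3 Mtgr1-/- clones were above it in 9 of the 11 higher genes, while both Prdm14-/- clones were above it in 5 and below it in 6. With C3 alone 9 of the 20 tested were higher and 3 lower.

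Naive pluripotency genes lay on the other side. Of 18 genes, all tested, 10 were lower in Mtgr1-/- cells (55.6%) and none was higher (median difference -1.15). Of all genes tested, 21.2% were lower and 15.8% higher. Nanog (chr6:122657507-122664651, plus strand, mm9) was at 30.7, 31.4 and 25.1 RPKM in Mtgr1-/- clones and 77.5 and 90.2 in Prdm14-/- clones (difference -1.51, SE 0.24, adjusted p = 0.000674). The wt library was at 91.2, close to F10, so the Prdm14-/- clones lay near wt and the Mtgr1-/- clones well below it. Esrrb, a nuclear receptor of the naive network, was graded, with 12.1, 14.9 and 15.7 RPKM in Mtgr1-/- clones, 38.9 and 54.6 in Prdm14-/- clones and 92.2 in wt (difference -1.67, SE 0.17, adjusted p = 4.62e-05). Tcl1, a coactivator of Akt, was at 1.86, 2.16 and 1.24 against 9.35 and 18.1 RPKM (difference -2.61, SE 0.25, adjusted p = 2.89e-05), with wt at 8.22.

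Jam2 (-1.56), Tbx3 (-1.42), Klf2 (-1.40), Tfcp2l1 (-1.30), Klf4 (-1.16), Pecam1 (-1.16) and Fgf4 (-1.11) were the other called members. Tbx3 was at 3.34, 3.38 and 4.01 RPKM against 10.1 and 10.6 (SE 0.40, adjusted p = 0.015), and at 16.9 in wt. Of the 10 called members, Tbx3, Klf2 (SE 0.44, adjusted p = 0.0257) and Klf4 (SE 0.35, adjusted p = 0.0215) lay nearest the threshold. All 10 genes were below wt in every Mtgr1-/- clone, and 8 were below wt in both Prdm14-/- clones. Not all naive genes separated the losses. Zfp42 (Rex1) was at 82.0, 109 and 44.8 RPKM against 59.1 and 126 (difference -0.22, 95% confidence interval -1.01 to 0.56, adjusted p = 0.661), and Tet2 at 3.73, 4.04 and 1.77 against 2.85 and 4.40 (-0.20, adjusted p = 0.695), where wt had 184 and 17.8 RPKM. For both genes the clones of a genotype spread more than the genotypes differed. Klf5 was at 88.2, 106 and 111 against 83.8 and 72.8 RPKM (0.37, adjusted p = 0.131), and was higher after adjustment for GC content (0.76, adjusted p = 0.00202), where 12 of the 18 were lower. Without F10 5 of the 18 were lower, and with C3 alone 7.

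The general pluripotency factors were divided, with 33.3% higher and 25% lower, against 15.8% and 21.2% of all genes tested. Pou5f1 (Oct4) was slightly higher in Mtgr1-/- cells, at 512, 552 and 540 RPKM against 308 and 395 (difference 0.61, SE 0.14, adjusted p = 0.00437), with 585 in wt, so all 5 libraries lay below it. Its partner Sox2 was lower, at 118, 132 and 160 against 286 and 346 RPKM (-1.22, SE 0.19, adjusted p = 0.0006), with wt at 304. Dppa5a, an RNA-binding protein of the naive state, was at 419, 494 and 295 against 1287 and 1950 RPKM (-2.01, SE 0.25, adjusted p = 0.000133). L1td1, an RNA-binding protein encoded by a domesticated transposon, was at 251, 252 and 182 against 61.7 and 79.6 RPKM (1.68, SE 0.28, adjusted p = 0.000867). Sall4 (0.44) and Lin28a (0.40) were higher and Zfp281 (-0.40) lower. In all, 4 of the 12 members were higher and 3 lower (2 and 2 without F10); Utf1 was not called (-0.88, adjusted p = 0.0647).

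**Figure D3:**
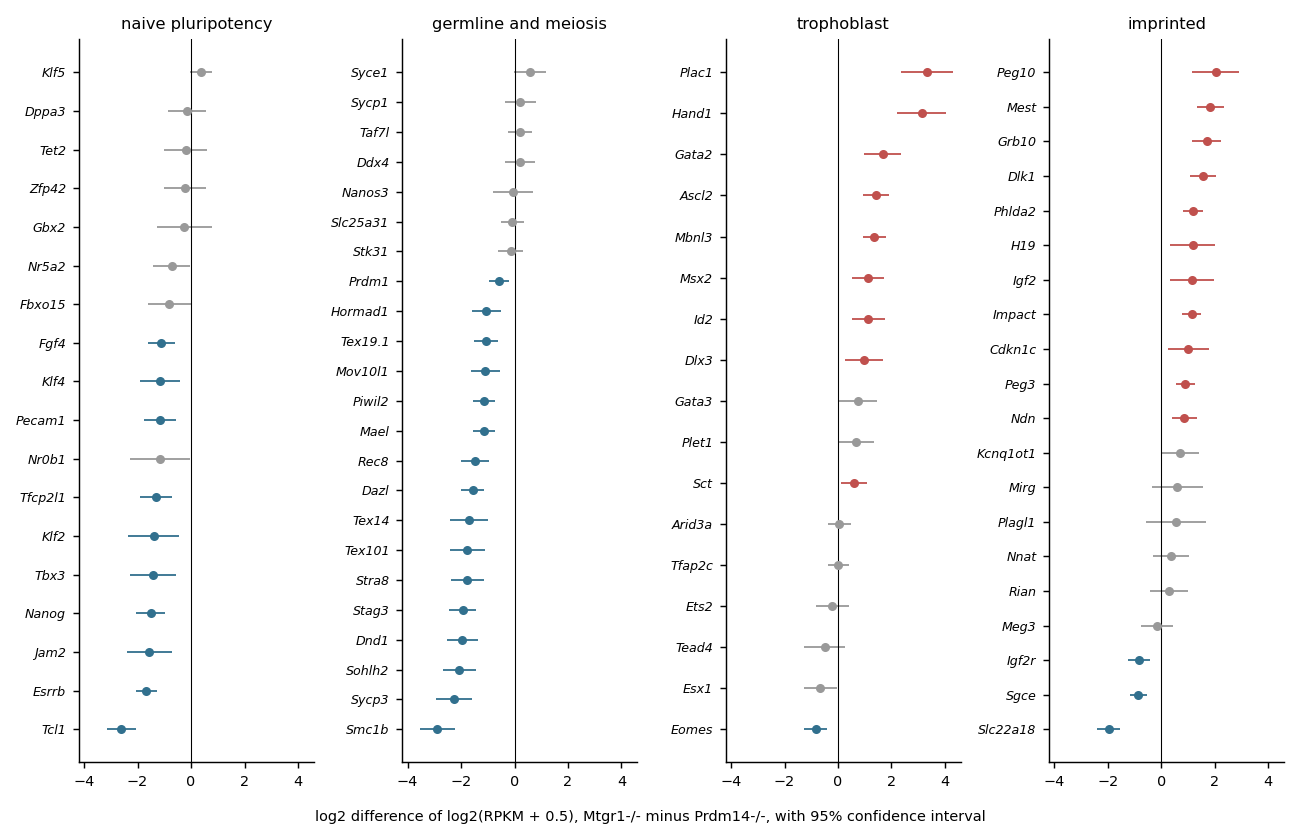
Difference in log2(RPKM + 0.5), Mtgr1-/- minus Prdm14-/-, of every tested member of 4 lists, with its 95% confidence interval from the limma model; red members were higher, blue lower, and grey not called at an adjusted p below 0.05. Called naive pluripotency (10) and germline (16) members lie to the left of 0, and 9 of 10 called trophoblast and 11 of 14 called imprinted members to the right.

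Germline and meiosis genes were lower in Mtgr1-/- cells. In mESCs many of these genes are held at low levels by repressors that read E-box and E2F sites in their promoters. Of 26 listed, 23 were tested, 16 were lower (69.6%) and none was higher (median difference -1.14). Of all genes tested, 21.2% were lower and 15.8% higher. Of the 16, 6 entered the test through the Prdm14-/- libraries alone, where they were high: Dazl, Smc1b, Hormad1, Stra8, Tex101 and Tex14. Of the 17 that reached 1 RPKM in both knockouts, 10 were lower (median -1.06). The count lower was also 16 without C3, where 2 genes were higher, and 16 with C3 alone; it was 15 without G6 and 13 without F10.

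The leading members encode parts of the meiotic chromosome. Smc1b, the meiotic cohesin subunit (chr15:84895121-84962387, minus strand, mm9), was at 0.504, 0.397 and 0.219 RPKM in Mtgr1-/- clones, 3.86 and 8.93 in Prdm14-/- clones and 15.1 in wt (difference -2.89, SE 0.30, adjusted p = 4.21e-05). Sycp3, a protein of the synaptonemal complex (chr10:87922314-87935981, plus strand, mm9), was at 2.63, 2.37 and 1.10 against 8.76 and 14.2 RPKM, with 14.8 in wt (-2.26, SE 0.31, adjusted p = 0.000235). Stag3, another meiotic cohesin subunit (chr5:138721468-138753621, plus strand, mm9), was at 2.99, 3.48 and 1.75 against 9.63 and 14.0 RPKM (-1.94, SE 0.23, adjusted p = 9.78e-05). The cohesin subunit Rec8 was at 4.694, 4.496 and 4.853 against 13.1 and 14.7 RPKM, with wt at 14.0. In each case the Mtgr1-/- clones did not overlap the Prdm14-/- clones, which was also so for 4509 of all 4567 called genes. The lowest FH-Mtgr1 library was at 6.65 RPKM for Smc1b, 17.1 for Sycp3, 12.7 for Stag3 and 7.88 for Rec8.

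Regulators of germ cells followed. Sohlh2, a transcription factor of spermatogonia and oocytes, was at 1.07, 2.19 and 0.752 against 6.32 and 7.30 RPKM (-2.06, SE 0.28, adjusted p = 0.000231). Dnd1, an RNA-binding protein that protects primordial germ cells, was at 5.97, 5.46 and 12.5 against 32.1 and 28.7 RPKM (-1.96, SE 0.27, adjusted p = 0.000238); here the Prdm14-/- clones stood well above the wt library (9.82). Mael, Mov10l1 and Piwil2, which act against transposons, were lower by -1.14, -1.09 and -1.14, and Prdm1 (Blimp1), which specifies germ cells with Prdm14, by -0.59. The germ cell helicase gene Ddx4 was at 7.94, 7.46 and 3.75 against 5.30 and 5.17 RPKM (0.20, adjusted p = 0.569). All 3 Mtgr1-/- clones were below wt in 15 of the 16 lower genes, both Prdm14-/- clones in 11.

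The promoters of 4 of these genes are shown because all 4 were lower and because 3 of them hold the E-box CACGTG. Each runs from 250 bases before to 50 after the transcription start in the RefSeq annotation of GRCm38.p6, 5′ to 3′ on the gene's strand, with matches on either strand to CACGTG or to the E2F-type word TCCCGC in capitals. Smc1b is at chr15:85131908-85132207 (minus strand), Sycp3 at chr10:88459337-88459636 (plus), Stag3 at chr5:138280259-138280558 (plus) and Mael at chr1:166238695-166238994 (minus).
Smc1b: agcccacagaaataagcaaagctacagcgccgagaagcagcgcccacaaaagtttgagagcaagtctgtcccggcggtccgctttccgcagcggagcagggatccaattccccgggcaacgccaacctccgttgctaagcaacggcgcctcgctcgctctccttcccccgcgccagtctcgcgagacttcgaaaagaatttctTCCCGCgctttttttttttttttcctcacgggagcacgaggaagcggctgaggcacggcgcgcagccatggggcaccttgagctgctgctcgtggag
Sycp3: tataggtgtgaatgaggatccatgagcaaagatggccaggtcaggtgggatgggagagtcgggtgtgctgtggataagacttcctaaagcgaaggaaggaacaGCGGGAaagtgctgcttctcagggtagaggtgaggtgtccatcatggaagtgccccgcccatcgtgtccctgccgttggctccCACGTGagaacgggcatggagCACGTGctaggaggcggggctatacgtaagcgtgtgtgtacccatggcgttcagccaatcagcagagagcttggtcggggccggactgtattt
Stag3: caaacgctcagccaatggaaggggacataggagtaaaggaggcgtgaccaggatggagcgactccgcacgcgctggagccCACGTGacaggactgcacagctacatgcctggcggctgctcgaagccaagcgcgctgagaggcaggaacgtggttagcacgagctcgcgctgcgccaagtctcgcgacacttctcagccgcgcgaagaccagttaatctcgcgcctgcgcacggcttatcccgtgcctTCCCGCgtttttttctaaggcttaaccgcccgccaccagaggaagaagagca
Mael: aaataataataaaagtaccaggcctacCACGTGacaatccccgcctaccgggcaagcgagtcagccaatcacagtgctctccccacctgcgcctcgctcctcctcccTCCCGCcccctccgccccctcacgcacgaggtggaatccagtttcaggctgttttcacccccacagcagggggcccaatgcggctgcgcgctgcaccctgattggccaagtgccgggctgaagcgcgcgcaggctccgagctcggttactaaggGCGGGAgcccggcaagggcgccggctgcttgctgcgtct
Smc1b holds the E2F-type word and no CACGTG; Sycp3 holds CACGTG at 2 positions. Of the 14 lower germline genes matched by symbol, 5 held CACGTG (35.7%) and 8 held TCCCGC (57.1%), against 10.6% and 37.5% of the promoters of all genes tested (9228 matched) and 7.24% and 20.02% of all 27025 promoters of the table. The 7 germline genes that were tested and did not differ also held them, CACGTG in 5 and TCCCGC in 3, so these words did not set the lower genes apart from the rest of their list. Matches of the 2 words can share at most 1 base, and a match is a description of the letters.

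Epiblast genes did not move as a group. Of 14, 1 was higher (7.1%) and 2 were lower (14.3%), against 15.8% and 21.2% of all genes tested. In all 5 knockout libraries 7 of the 14 were above wt. Fgf5, a marker of the postimplantation epiblast, was lower in Mtgr1-/- cells, at 7.45, 5.68 and 5.71 RPKM against 15.3 and 12.8 (difference -1.10, SE 0.18, adjusted p = 0.000801), with 1.56 in wt. Dnmt3b, the de novo DNA methyltransferase of the epiblast, was higher, at 250, 245 and 279 against 131 and 81.4 RPKM (1.32, SE 0.32, adjusted p = 0.00685). In Dnmt3b the wt library, at 150 RPKM, lay between the losses. Otx2, which opens the formative state, was at 29.6, 27.7 and 19.02 against 34.2 and 57.1 RPKM (-0.81, SE 0.22, adjusted p = 0.0133), and at 66.5 in wt. Without F10, which left a single Prdm14-/- clone, the difference was 0.98 for Dnmt3b and -0.45 for Otx2, and neither passed. With C3 alone Dnmt3b differed by 1.43 and did not pass. Pou3f1 (70.4, 78.7 and 186 against 130 and 114 RPKM; -0.27, interval -1.06 to 0.52, adjusted p = 0.597) and Wnt8a (2.30, 1.82 and 3.37 against 2.84 and 2.51; -0.12, interval -0.75 to 0.52, adjusted p = 0.787) were not called, and clone C3 had the highest Pou3f1 of all 5.

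Primitive streak and mesoderm genes were low. Of 16 listed, 6 reached the filter. Of these, 1 was higher (16.7%) and 3 were lower (50%), against 15.8% and 21.2% of all genes tested. T (Brachyury), Mixl1, Evx1, Lhx1, Msgn1 and Cer1 were among those that did not reach it, with at most 1.64 RPKM (T, in C3). Sp5, a target of Wnt signalling, was higher at 3.44, 2.16 and 9.30 against 1.97 and 1.34 RPKM (1.14, adjusted p = 0.0411), a call that rested on C3 and was lost without it (adjusted p = 0.058). Gsc, Mesp2 and Tbx6 were lower, at or below 0.829 RPKM in Mtgr1-/- and 1.04 to 1.47 in Prdm14-/- clones, and entered the test through the latter alone; none was lower after adjustment for GC content.

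Of 16 listed primitive endoderm genes, 7 were tested. Of these, 4 were lower in Mtgr1-/- cells (57.1%) and none was higher, against 21.2% and 15.8% of all genes tested. Dab2 leaned the other way, at 5.43, 5.65 and 6.22 against 4.29 and 5.29 RPKM, and was not called (0.25, adjusted p = 0.386). Cubn (-0.22, adjusted p = 0.667) and Amn (-0.74, adjusted p = 0.0793) were not called either. Gata6, which commits cells to primitive endoderm, was at 0.364, 0.589 and 1.13 RPKM against 1.54 and 4.68 (-1.49, SE 0.38, adjusted p = 0.00999), and Gata4 at 0.686, 1.22 and 1.51 against 1.78 and 5.69 (-1.23, SE 0.35, adjusted p = 0.0172). In both genes F10 stood above all other knockout libraries and C3 came close to G6, and neither passed with C3 alone (adjusted p = 0.216 and 0.229) or without F10 (adjusted p = 0.144 and 0.246). Lrp2, the endocytic receptor megalin, was at 24.2, 20.9 and 33.8 against 65.7 and 56.1 RPKM (-1.22, SE 0.23, adjusted p = 0.00174), and 3.17 in wt. Apoe, an apolipoprotein secreted by yolk sac endoderm and many other cells, was at 142, 165 and 246 against 1138 and 920 RPKM (-2.51, SE 0.25, adjusted p = 3.71e-05), with 687 in wt. With C3 alone Apoe was the 1 of the 4 that passed, and without F10 2 of the 7 were lower. The visceral endoderm products Afp, Ttr and Apoa1 were below 0.5 RPKM in every knockout library.

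Of 13 basement membrane and parietal endoderm genes tested, 3 were higher and 3 lower (23.1% each), against 15.8% and 21.2% of all genes tested. Without C3 1 was higher and 5 lower, and fewer passed without F10 or with C3 alone. The type IV collagen genes Col4a1 (58.8, 54.5 and 60.0 against 29.6 and 33.4 RPKM; 0.87, SE 0.21, adjusted p = 0.00752) and Col4a2 (0.69) were higher, as was Plat (0.81), and the laminin genes Lama1 (4.03, 5.27 and 7.51 against 8.47 and 25.6; -1.37, SE 0.42, adjusted p = 0.0239) and Lamb1 (-0.77) and the nidogen gene Nid2 (-1.33) were lower; Lamc1 (-0.44, adjusted p = 0.19), Nid1 (0.28, adjusted p = 0.157) and the perlecan gene Hspg2 (-0.92, adjusted p = 0.0673) were not called. The 3 higher genes all lie on chromosome 8. Its genes were higher as a block in A3 and C1 (median shift 0.49 and 0.50 log2 units over wt) and near wt in C3 (0.06). With C3 alone the difference was 0.92 for Col4a1, 0.90 for Col4a2 and 1.02 for Plat, and none of the 3 passed. The part of the chromosome in these differences was not tested. Plat passed the filter through the Mtgr1-/- libraries alone. Sparc was at 133, 138 and 172 against 139 and 152 RPKM (0.01, interval -0.29 to 0.31, adjusted p = 0.956), and at 69.8 in wt. All 3 higher genes were above wt in all 5 knockout libraries.

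Epithelial genes were mostly above wt in both knockouts (14 of 19 in all 5 libraries) and seldom differed between them. The simple keratin genes were Krt8 (792, 757 and 1303 against 549 and 396 RPKM; 0.98, interval 0.02 to 1.94, adjusted p = 0.102), Krt18 (624, 563 and 967 against 575 and 466; 0.43, adjusted p = 0.158) and Krt19 (157, 155 and 210 against 174 and 158; 0.06, interval -0.37 to 0.48, adjusted p = 0.851), where wt had 22.9, 52.2 and 11.5 RPKM. In all 3, C3 was the highest library; Krt8 and Krt18 passed after adjustment for GC content (adjusted p = 0.0184 and 0.0236). Dsp, the desmosome's link to keratin, was higher (65.7, 52.5 and 76.2 against 33.5 and 21.5 RPKM; 1.24, SE 0.25, adjusted p = 0.0026), and the tight junction gene Cldn3 was lower (17.2, 17.4 and 40.3 against 93.1 and 58.6; -1.66, SE 0.34, adjusted p = 0.00307), as were Epcam (-0.64) and Pkp2 (-0.49). In all, 1 of 19 was higher (5.3%) and 3 lower (15.8%), against 15.8% and 21.2% of all genes tested. Fewer were lower without F10, without G6 or with C3 alone. Cdh1 (E-cadherin), on chromosome 8, was not called (0.63, adjusted p = 0.0526).

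Of 18 mesenchymal and contractile genes tested, 16 were above wt in all 5 knockout libraries, a count with no share over all genes beside it. In Mtgr1-/- against Prdm14-/- cells 3 were higher and 3 lower (16.7% each), near the 15.8% and 21.2% of all genes tested. Without C3 2 were higher and 8 lower, and fewer passed without F10. Cdh2 (N-cadherin) was at 4.54, 4.23 and 6.95 against 1.00 and 1.06 RPKM (1.88, SE 0.26, adjusted p = 0.000231), with wt at 0.556, and the galectin gene Lgals1 at 294.1, 395.0 and 328.1 against 107.6 and 102.6 RPKM (1.68, SE 0.22, adjusted p = 0.00016). The targets of the Hippo effector Yap Ctgf (33.4, 32.4 and 57.1 against 115 and 104 RPKM; -1.46, adjusted p = 0.0284) and Cyr61 (-1.33) were lower, as was smooth muscle actin, Acta2 (-1.41), which had 22.5 RPKM in C3 but 6.46 and 7.36 in A3 and C1, against 28.5 and 27.7. None of these 3 passed with C3 alone (adjusted p from 0.178 to 0.737). The mesenchymal regulators Snai2, Zeb1 and Zeb2 were below 0.4 RPKM in all 5 libraries.

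Of 20 neural and ectoderm genes 7 were tested, 4 higher and none lower; 1 was higher without F10, 2 without G6 and 1, Vgf, with C3 alone. Vgf, a neuropeptide precursor, was at 15.2, 20.9 and 50.5 against 8.78 and 6.96 RPKM (1.63, SE 0.41, adjusted p = 0.00827) and at 0.518 in wt. The neuronal tubulin Tubb3 (42.9, 52.0 and 70.0 against 15.6 and 15.7; 1.75, adjusted p = 0.025), Irx3 (0.89) and Tfap2a (0.86) were the others; Tubb3 and Irx3 lie on chromosome 8, and Tfap2a passed the filter through Mtgr1-/- libraries alone. Of the neural and ectoderm genes tested, 57.1% were higher, against 15.8% of all genes tested. The neural plate regulators Sox1 and Pax6 were below 0.7 RPKM in all 5 libraries.

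Among 18 FGF receptor and ERK feedback genes, 4 were higher (22.2%) and 3 lower (16.7%), against 15.8% and 21.2% of all genes tested. Of the Sprouty inhibitors of ERK signalling, Spry1 was far lower in Mtgr1-/- cells (11.4, 11.3 and 18.2 against 60.6 and 57.1 RPKM; -2.10, SE 0.18, adjusted p = 1.78e-05), while Spry4 (25.7, 29.3 and 20.9 against 7.72 and 9.03; 1.53, SE 0.25, adjusted p = 0.000771) and Spry2 (0.54) were higher. For Spry1 wt was at 16.6 RPKM, near the Mtgr1-/- clones, and for Spry4 at 35.2. The ERK targets Etv4 (1.32) and Ccnd1, encoding cyclin D1 (58.7, 58.0 and 54.3 against 14.7 and 19.8 RPKM; 1.71, SE 0.14, adjusted p = 1.09e-05), were higher, and Fgfr4 (-1.39) and Il17rd (-0.85) lower; Fgfr4 passed the filter through the Prdm14-/- libraries alone. Fgfr2, at 7.33, 7.02 and 9.35 against 14.6 and 12.2 RPKM, was not called (-0.74, adjusted p = 0.0525).

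The LIF and Stat3 list was equally split, with 3 higher and 3 lower of 9 tested (33.3% each), against 15.8% and 21.2% of all genes tested. The kinase gene Pim2 (chrX:7455388-7460558, plus strand, mm9) was at 133, 134 and 146 RPKM in Mtgr1-/- clones against 21.5 and 12.2 in Prdm14-/- clones (3.04, SE 0.22, adjusted p = 7.56e-06), with wt between at 37.2. Its relative Pim3 went the other way (63.9, 63.9 and 151 against 285 and 291 RPKM; -1.75, SE 0.33, adjusted p = 0.00184), as did Pim1 (-1.09) and the feedback inhibitor Socs3 (-0.73); C3 lay between its sisters and the Prdm14-/- clones for all 3, and none passed with C3 alone. Stat3 (0.51) and Bcl3 (1.11) were higher. The Pim genes thus differed in opposite directions, with Pim2 apart in all 3 clones.

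**Figure D4:**
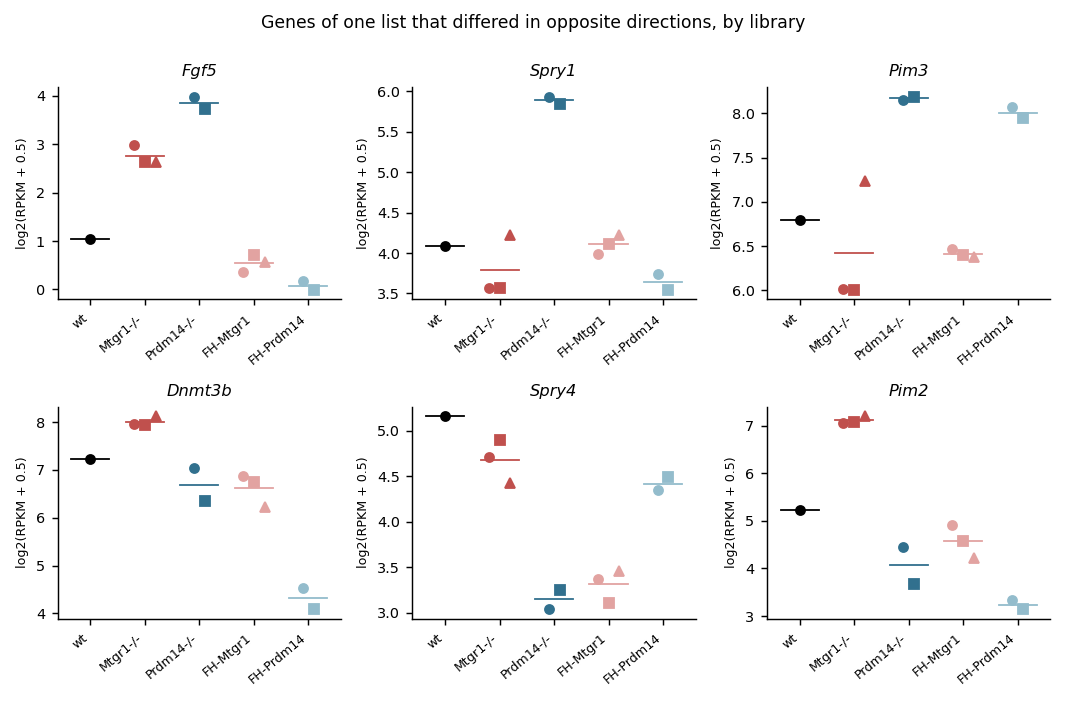
log2(RPKM + 0.5) by library of 6 genes, with groups, symbols and lines as in the plot of lineage genes. Fgf5, Spry1 and Pim3 (top) are lower in Mtgr1-/- than in Prdm14-/- clones, and Dnmt3b, Spry4 and Pim2 (bottom), from the same lists, are higher. The knockouts overlap in none of these 6 called genes, and do not overlap in 4509 of all 4567 called genes.

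Of 10 Nodal and BMP genes 1 was higher and 2 lower, shares near those of all genes tested. Id1, a direct BMP target, was at 198, 233 and 218 against 86.9 and 62.1 RPKM (1.55, SE 0.39, adjusted p = 0.00874); its relative Id3 had a larger difference but more spread over all libraries of the model (84.1, 97.4 and 135 against 39.99 and 24.5 RPKM; 1.71, SE 0.81, adjusted p = 0.115). The BMP inhibitor Smad6 was lower (-1.31). Among the Wnt genes tested, 20% were higher and 20% lower, near the 15.8% and 21.2% of all genes tested. Of 5 Wnt genes tested Lef1 was higher (2.62, 3.45 and 2.75 against 1.05 and 1.33 RPKM; 1.02, SE 0.24, adjusted p = 0.00555) and Tcf7 lower (23.5, 22.7 and 22.5 against 47.9 and 42.5; -0.96, SE 0.16, adjusted p = 0.000774); both encode DNA-binding partners of beta-catenin.

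Glycolysis and hypoxia-response genes, many of which cells raise when oxygen is short, were mostly lower in Mtgr1-/- cells. Of 20 tested, 14 were lower (70%) and 1 was higher (5%), against 21.2% and 15.8% of all genes tested. Their median difference was -1.26. Txnip is counted among the 14, although it inhibits glucose uptake. Pdk1, which keeps pyruvate out of mitochondria, was at 27.6, 26.7 and 24.6 against 65.6 and 100 RPKM (-1.61, adjusted p = 0.000106). The angiogenic factor Vegfa was at 3.51, 3.22 and 5.27 against 16.8 and 17.0 RPKM (-1.98, SE 0.20, adjusted p = 4.05e-05), with 16.1 in wt. Ndufa4l2, a hypoxia-induced mitochondrial protein, was at 1.51, 1.96 and 0.826 against 9.32 and 9.39 RPKM (-2.40, SE 0.50, adjusted p = 0.00305) but at 53.3 in wt, so both losses were below it. The aldolase gene Aldoc (-1.82) was lower, and with it Hk1, Aldoa, Pfkp, Pgk1, Egln3, Bnip3, Pfkl, Slc2a3 and Tpi1, by -1.55 to -0.70. Hk2 was higher by 0.30, and Ldha (-0.15, adjusted p = 0.503) and Pkm (-0.36, adjusted p = 0.0678) were not called. All 14 lower genes were below wt in every Mtgr1-/- clone, and 8 were below and 5 above wt in both Prdm14-/- clones. With C3 alone 10 of the 20 were lower.

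Markers of other cell types were measured in the same libraries. The summed RPKM of 10 fibroblast genes was 15.8 to 29.8 in Mtgr1-/- and 17.1 to 23.3 in Prdm14-/- clones, against 20.1 in wt, and Dcn, Lum, Postn and Prrx1 were at most 0.296 RPKM. Fbn1 was higher (1.31) and Thy1 (-0.64) and Pdgfrb (-0.78) were lower, and Col1a1 was at 5.38, 5.21 and 16.7 against 6.61 and 4.81 RPKM, with 1.49 in wt. Of 10 blood and endothelial genes the embryonic globins were at most 0.242 RPKM, Cdh5, on chromosome 8, was higher (2.53, 2.47 and 0.775 against 0.238 and 0.195 RPKM; 1.66, adjusted p = 0.00223), and Tek (-0.99) and Gata1 (-0.65) were lower. Without F10, Fbn1 (adjusted p = 0.0529), Tek (adjusted p = 0.206) and Gata1 (adjusted p = 0.0875) did not pass, and with C3 alone none of the 10 tested genes of these lists passed. Fbn1 and Cdh5 reached the filter through the Mtgr1-/- libraries alone and Gata1 through the Prdm14-/- libraries alone. The 10 heart and skeletal muscle genes summed to 19.4 to 20.1 RPKM in Mtgr1-/- and 54.7 and 83.6 in Prdm14-/- clones, and 4 of 7 tested were lower: Tnnt1 (4.80, 5.26 and 3.17 against 14.2 and 44.6 RPKM; -2.42, SE 0.40, adjusted p = 0.000729), Actc1 (-1.99), Des (-1.84) and Myl4 (-0.69). These 4 were 57.1% of the muscle genes tested, against 21.2% of all genes tested that were lower. Wt had 19.8 RPKM of Tnnt1 and 40.7 summed, and the heart regulator Nkx2-5 was at most 0.521. Of 8 genes of the two-cell-like state 4 were tested and none passed; Zscan4c was at 1.98, 2.14 and 0.272 against 0.985 and 0.958 RPKM. The part of other cells in these results was not tested.

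Chromosome 8 stood apart. Over 510 genes on chromosome 8, the median difference from wt, relative to the other autosomes, was 0.49 and 0.50 log2 units in the Mtgr1-/- libraries A3 and C1, and 0.06, 0.08 and -0.05 in C3, G6 and F10. It was 0.47 and 0.47 in FH-Mtgr1 A3 and C1 and -0.11 in FH-Mtgr1 C3, and 0.38 and 0.43 in the wt libraries grown in 2i+LIF, which were not part of this comparison. Of the 661 chromosome 8 genes tested, 166 (25.1%) were higher and 68 (10.3%) lower in Mtgr1-/- than Prdm14-/- cells, and with C3 alone 23 and 37. The number of copies of the chromosome was not measured, and its part in the result was not tested. Among the lists, Klf2, Zfp42, Col4a1, Col4a2, Plat, Cdh1, Acta1, Tubb3, Irx3, Nanos3, Dusp4 and Cdh5 lie on it. Of these, Klf2 was called lower. By the same measure chromosomes 7 and 17 were above wt, and 13 and 18 below it, in C3, G6 and F10 by 0.16 to 0.33 and -0.41 to -0.22.

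**Figure D5:**
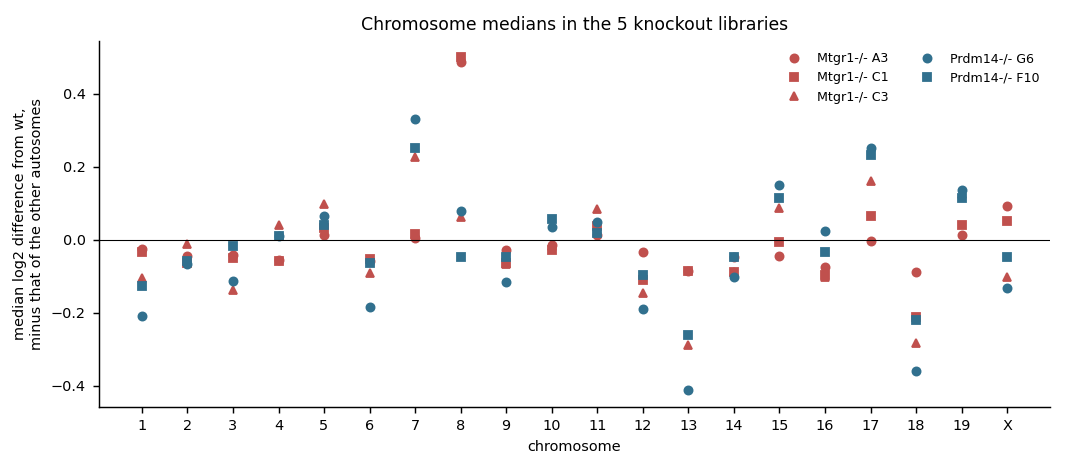
For each chromosome (horizontal axis), the median over its genes (mean above 5 RPKM) of the log2 difference between a knockout library and the wt library, minus that of the other autosomes; red symbols are Mtgr1-/- and blue Prdm14-/- clones. On chromosome 8 A3 and C1 stand at 0.49 and 0.50, while C3, G6 and F10 lie between -0.05 and 0.08.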

How the data were processed

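RNA-seq was analysed for 15 libraries; the 11 ChIP-seq samples were left out, being another assay. The authors aligned reads from oligo-dT-selected RNA to mm9 with Tophat and counted them per RefSeq gene with HTSeq. They deposited RPKM values and gene lengths; how RPKM was computed is not given in the sources used here. RPKM times length, in units of the smallest value of a library, gave whole reads for 100.0% of values, from which depth was taken.

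Values were compared as log2(RPKM + 0.5), a scale that understates changes of low genes. Genes with at least 1 RPKM in at least 2 of the 5 knockout libraries entered a limma model (version 3.58.1, R 4.3.3, variance trend, Benjamini-Hochberg adjustment) with means for 7 conditions over 15 libraries. P-values rest on a spread pooled over the replicates of every condition that had them, the 2i+LIF libraries included. They do not measure the spread of the 5 knockout clones alone. With only these 5 libraries in the fit, 3606 genes passed. The step was tested on simulated reads with a fixed spread and no differences between clones, in GC content or by chromosome. That run cannot show how such differences affect the calls. Positions are from GENCODE M1 (NCBIM37), promoters from RefSeq on GRCm38.p6. The members and the 24 gene lists were chosen with earlier results of these data known. Genes were named by rule: the 10 largest called differences per direction with non-overlapping libraries and a mean of at least 1 RPKM; up to 4 called members per direction and 2 abundant others per list; the study's markers; targeted and clone-check genes; and defining markers near 0. Members named beyond it, histone genes and chromosomes were chosen after their values were seen. Alternatives covered pseudocount, filters, scaling, GC and length adjustment, limma-voom on recomputed reads, smaller fits and each library left out. Some list members that passed are counted but not reported here by name.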

Additional observations from a re-analysis of the deposited data

How the results depend on the processing

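No paired analysis was possible because no clone is shared between the 2 knockouts. No called gene that is named reversed under any alternative, and no gene was called in opposite directions. A fit with libraries left out cannot reverse a gene whose knockout libraries do not overlap. Such genes were 4509 of the 4567 called, so the lack of reversals in those fits was largely fixed in advance. Of 2893 alternative values of single named genes, 2521 kept direction and side of the threshold, 301 lost the call, 43 gained it and 28 reversed. Of the 111 called genes named by rule, 52 passed under every setting in which they were tested. A setting that left a gene out, such as a stricter filter, did not count against that gene. Leaving out a library gave 2850 to 5157 genes (1048 to 2278 higher), 78 to 134 list genes, 72 to 102 named genes, 5 to 10 lower naive, 5 to 10 higher trophoblast and 7 to 11 higher imprinted genes. The fit with C3 alone, added after seeing the data, gave 1720 genes (570 higher, 1150 lower), 74 list genes, 58 named genes and 5 higher trophoblast genes; it has fewer samples. The reversed values were all of genes not called. With C3 alone they were Ddx4 at -0.43, Pou3f1 at 0.61, Wnt8a at 0.29, Zscan4c at -0.93 and Prdm14 at -0.72, and after GC adjustment Wnt8a at 0.052. In the 4-library fit without C3, also added later, they were Krt19 at -0.089, Sparc at -0.10, Zfp42 at 0.13, Tet2 at 0.11 and Col1a1 at -0.085. With a library left out, Wnt8a ranged from -0.32 to 0.053, Krt19 from -0.089 to 0.13, Sparc from -0.10 to 0.081, Zfp42 from -0.77 to 0.32, Tet2 from -0.48 to 0.11, Tfap2c from -0.057 to 0.095, Zscan4c from -0.089 to 0.80, Col1a1 from -0.085 to 0.71 and Prdm14 from -0.33 to 0.42. The cause was not tested. Depth and the 2 Prdm14-/- clones limit calls of low genes.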
